A study of Mus musculus with 4 samples.

Results

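Retnla, Arg1, Chil3 and Chil4 are 4 of the 13838 genes counted in single cells from the airspaces of mice that inhaled mineral dust, a house dust mite allergen, or both. They were chosen by name, as products widely used to mark alternatively activated (type 2) macrophages, and each was read in every refined cell type and library whatever its level. The cells were lavaged from the lungs of C57BL/6 mice and read with the 3' v2 chemistry of 10x Genomics, in which each captured transcript carries a unique molecular identifier (UMI) and is counted 1 time. There were 4 groups, each a single library made from the pooled lavage of 7 mice. Control mice breathed filtered air and then received sterile PBS through the nose. HDM mice breathed filtered air and then received 10 µg of house dust mite extract in PBS. APM mice breathed Afghanistan particulate matter, a mineral dust, in whole-body chambers (5 mg/m3, 6 hours daily, 12 days), and then received PBS. HDM+APM mice had the dust first and the allergen afterwards. Instillations began 9 days after the last dust exposure, on days 22 and 29, and were repeated on days 36, 37 and 38, with the lavage on day 39. With 1 pooled library per group, no difference between groups has a replicate check and no p-value is given. Every interval printed is a 95% interval for counting error alone.

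The cytokines IL-4 and IL-13, made by T helper 2 cells and group 2 innate lymphoid cells, act on macrophages and on airway epithelium through receptors that contain the chain Il4ra, and they activate the transcription factor Stat6. Retnla encodes RELMα (also FIZZ1), a secreted resistin-like protein, and Arg1 encodes arginase, the cytosolic enzyme that splits arginine into ornithine and urea. Chil3 (Ym1) and Chil4 (Ym2) encode secreted chitinase-like lectins that lack chitinase activity. In the lung, resting alveolar macrophages are known to make Chil3, and airway epithelium is known to make Retnla and Chil4 during allergic inflammation.

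The stretches upstream of the RefSeq starts of 3 of the 4 genes are shown because STAT-type sites are the usual link between these genes and IL-4. Those of the chitinase-like pair are also near copies. They are not part of the counted transcripts. Capitals mark the STAT-type match in each. The stretches are from RefSeq on GRCm38.p6, written 5′ to 3′ on the gene's strand. Each begins 250 bases before the RefSeq start and ends before the earlier of the RefSeq and GENCODE starts, which shortens Retnla to 192 bases and Chil4 to 222. Retnla lies on the plus strand (chr16:48842359-48842550), and Chil3 (chr3:106167565-106167814) and Chil4 (chr3:106219508-106219729) lie on the minus strand.
Retnla: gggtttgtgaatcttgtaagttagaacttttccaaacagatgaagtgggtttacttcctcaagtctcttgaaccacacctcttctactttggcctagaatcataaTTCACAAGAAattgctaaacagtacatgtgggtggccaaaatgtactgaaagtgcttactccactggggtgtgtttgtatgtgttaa
Chil3: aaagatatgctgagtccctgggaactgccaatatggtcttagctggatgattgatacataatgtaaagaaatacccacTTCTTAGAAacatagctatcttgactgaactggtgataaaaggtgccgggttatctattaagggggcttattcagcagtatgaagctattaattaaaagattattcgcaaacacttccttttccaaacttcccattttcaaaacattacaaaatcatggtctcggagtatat
Chil4: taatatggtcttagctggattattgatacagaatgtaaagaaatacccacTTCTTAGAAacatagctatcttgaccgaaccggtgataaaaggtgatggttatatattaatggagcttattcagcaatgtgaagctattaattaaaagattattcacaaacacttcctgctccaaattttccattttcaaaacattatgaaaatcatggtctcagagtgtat

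Motifs were searched on both strands in the 250 bases before each RefSeq start, and all matches named here lie in the printed stretches. Retnla held the motif with the spacing known for STAT6, TTC and GAA with 4 bases between them, as did 5.85% of the 32851 RefSeq promoter windows of 250 bases. Chil3 and Chil4 held the same 9 bases of the shorter spacing TTCNNNGAA, present in 7.02% of windows. The first base of the match lay 145 bases before the RefSeq start of Retnla, 172 before that of Chil3 and 200 before that of Chil4. The C/EBP core TTGCNNAA (9.56% of windows) was found upstream of Retnla and Chil4, and the PU.1 core GAGGAA (23.3%) upstream of Retnla alone of the 3. These matches are letters in a window and were not tied to any factor here. The 250 bases before the RefSeq starts of Chil3 and Chil4 were identical at 201 of 221 aligned bases (91.0%), and their transcripts at 1452 of 1538 (94.4%). Of the 50-base windows in the last 500 bases of the transcript, the part that a 3' kit reads, 77 of 451 (17.1%) occurred in both, so most but not all reads there could be told apart. The genes are neighbours on chromosome 3, 33925 bases apart in GENCODE vM21 on GRCm38, and are reported as near copies. Retnla shared no such window with Retnlg, Retnlb or Retn. In the same annotation Retnla (chr16:48842551-48844461, plus strand), Arg1 (chr10:24915221-24927484, minus strand), Chil3 (chr3:106147554-106167564) and Chil4 (chr3:106201490-106219507) are protein-coding genes.

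There were 3918 control, 994 HDM, 3890 APM and 1123 HDM+APM cells, with medians of 3417, 1380, 2637 and 4780 UMIs per cell, so the HDM library was the shallowest. Viability was 60 to 80% per the labels, and at most 16 cell barcodes were shared by any pair of libraries. Because RNA set free from other cells can enter droplets, T, B, granulocyte-like and dendritic cells of the same library served as a reference. Whether these cells express any of the 4 genes themselves was not tested, and their granulocyte-like cells held more Chil3 than their T cells. These reference cells numbered 25, 791, 107 and 634. The authors' names were checked against marker genes. The 308 cells named classical monocyte, all from the HDM+APM library, had cavity macrophage genes (Prg4, Alox15, Cd5l, Saa3) and complement genes among their 10 leading genes and none of the monocyte markers. With all of them in 1 library, the cluster may be that library rather than a type. The cluster Macrophage 8 was led by Mmp12, Ccl24, Rnase2a and Arg1, and none of its 10 leading genes was an alveolar macrophage marker, which was also so for Macrophages 2, 3, 7, 9 and 10. Macrophages 1, 4, 5 and 6 had 1 to 3 such markers among theirs. Retnla is itself a leading gene of the monocyte-named cells and Arg1 of Macrophage 8, so those levels are descriptions. Macrophage 8 made up 2.81% of the cells and 1.04% of the UMIs in control, and 14.0% and 23.9% in HDM. Its cells were thus shallower than the library average in control and deeper in HDM. Whether they were the same kind of cell in each library was not tested.

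Over whole libraries, the 4 genes had different patterns (shown in the plot of levels by cell type). Retnla stood at 0.396 CPM (counts scaled to a fixed total of UMIs per library or cell type) in control, 174 in HDM, 1.59 in APM and 6951 in HDM+APM, from 6, 335, 18 and 36123 UMIs. Arg1 stood at 0.461, 226, 0.176 and 127 CPM. Chil4 stood at 0.264, 33.3, 0.0881 and 80.2 CPM. All 3 were thus near absent without allergen, and they differed in direction between the allergen libraries. Retnla was 39.8-fold higher in HDM+APM than in HDM (35.8 to 44.5), Chil4 was 2.41-fold higher (1.85 to 3.18), and Arg1 was lower, with a ratio of 0.563 (0.498 to 0.637). Chil3 was abundant in each library, at 6665, 12645, 6759 and 8639 CPM. These totals mix cell types whose shares differed between libraries, and fewer cells of a type cannot be told apart from less RNA per cell in them.

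**Figure D1:**
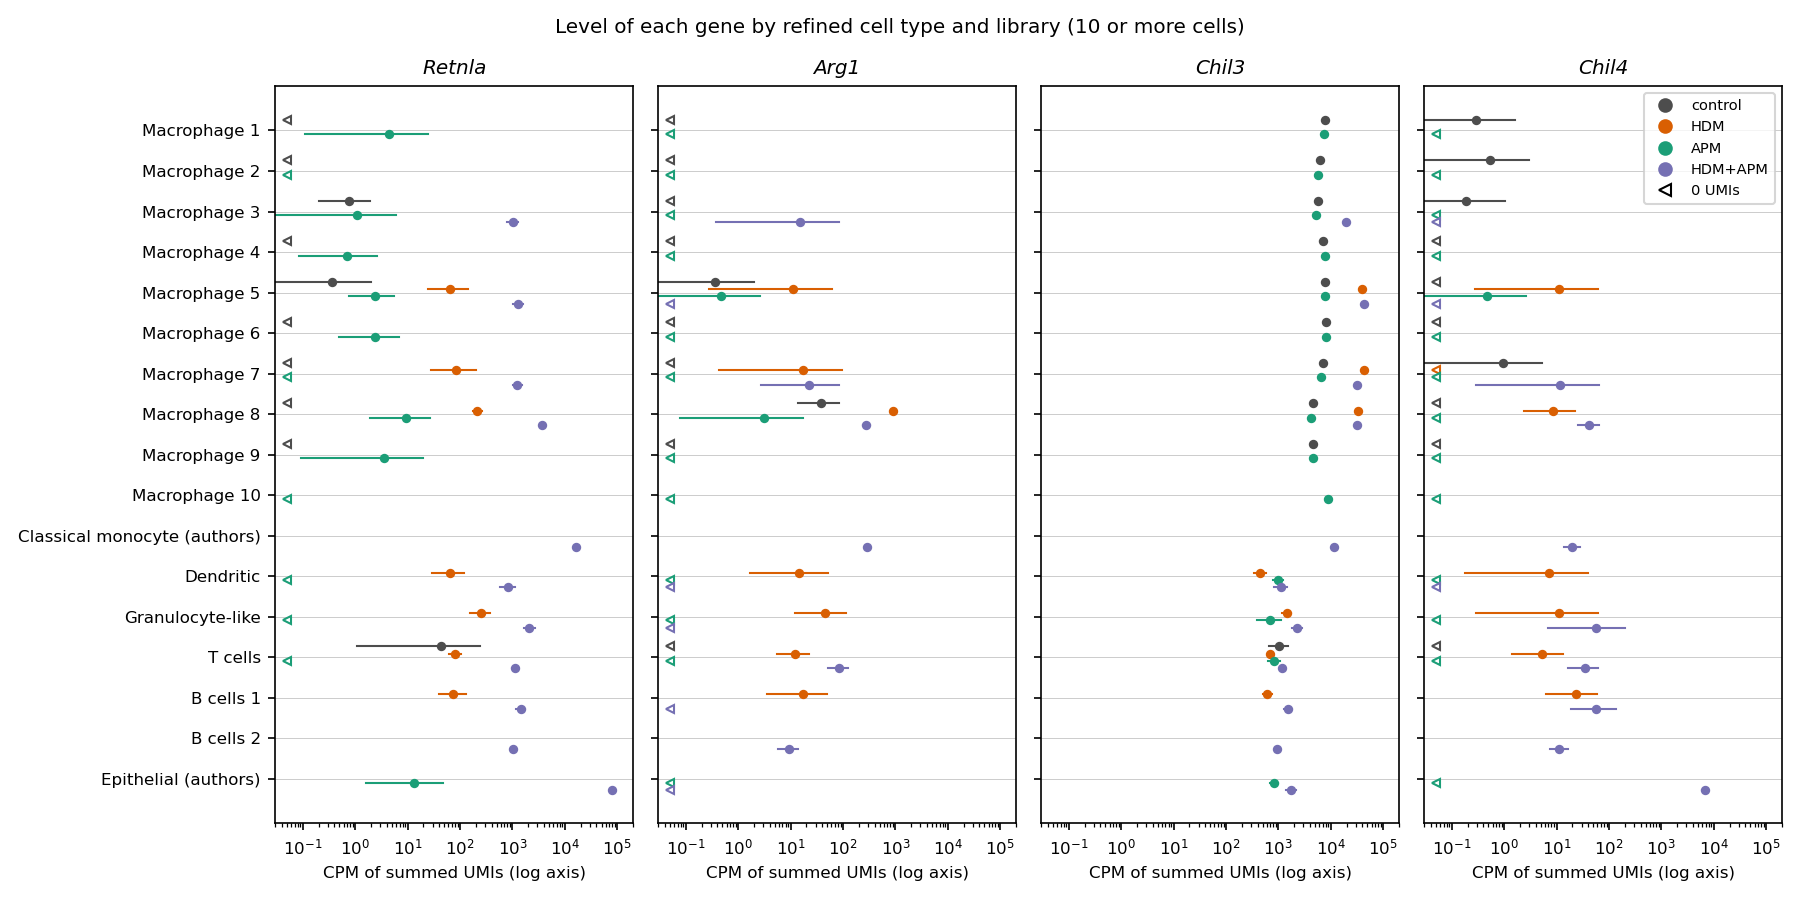
Level of each gene (CPM of summed UMIs, log axis) in the 17 refined cell types, with 1 point per library for types with at least 10 cells there, bars for 95% counting intervals and triangles for 0 UMIs. Retnla is highest in the epithelial-named cells (79967 CPM) and the monocyte-named cells (16611 CPM) of HDM+APM, Arg1 in Macrophage 8 of HDM (899 CPM), Chil4 in epithelial-named cells, and Chil3 in the macrophage clusters.

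Retnla was most concentrated in cells that were not alveolar macrophages. The 308 monocyte-named cells gave 27238 of the 36123 Retnla UMIs of the HDM+APM library, or 75.4%, and all of them held at least 1. Their level was 16611 CPM (16414 to 16809), 15.6-fold that of the reference cells of the library (15.0 to 16.2), which stood at 1067 CPM. The 25 epithelial-named cells stood higher still, at 79967 CPM, and gave 10.6% of the UMIs from 2.23% of the cells. Macrophage 8 followed at 3639 CPM (3473 to 3811). In order, the epithelial-named cells were 4.81-fold above the monocyte-named cells (4.65 to 4.98), these were 4.56-fold above Macrophage 8 (4.35 to 4.79), and Macrophage 8 was 1.72-fold above the granulocyte-like cells (1.37 to 2.21). Below that, the intervals of the ratios between neighbours included 1.

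**Figure D2:**
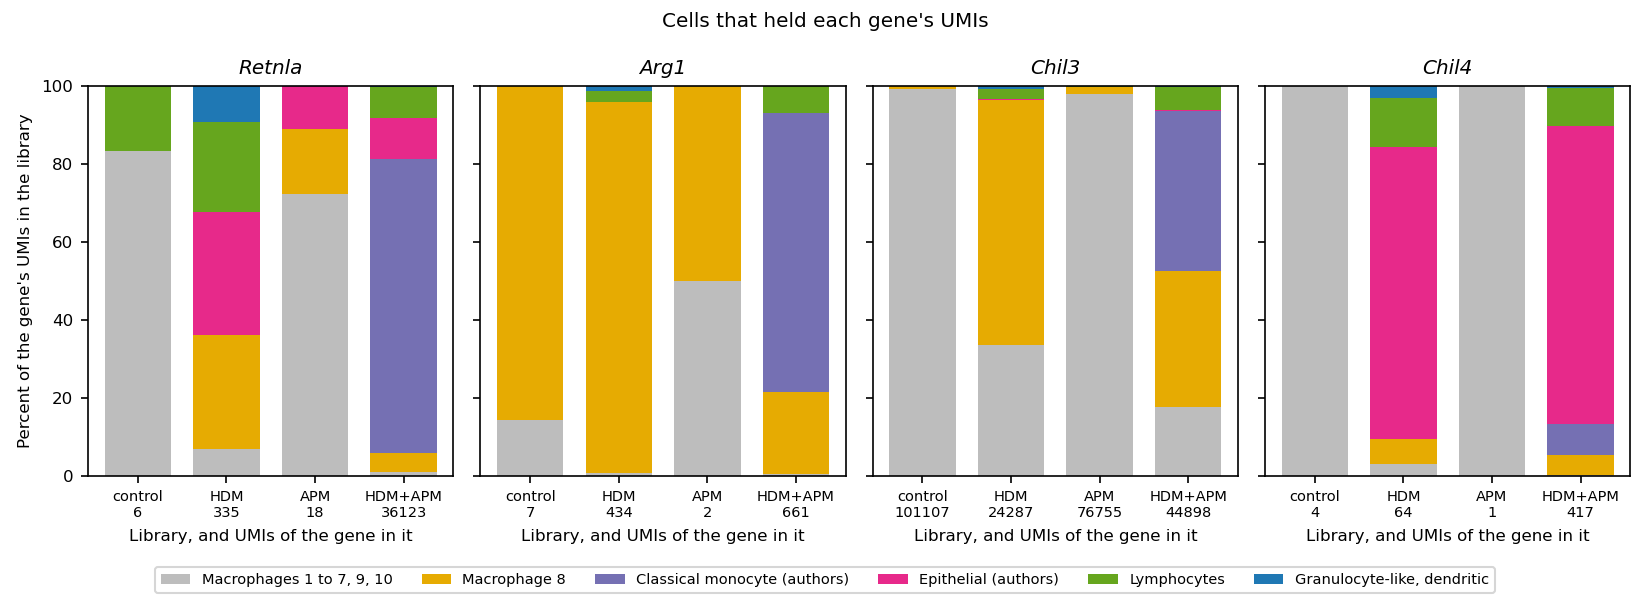
Share of each gene's UMIs (percent, stacked bars) by group of cell types in the 4 libraries, with the number of UMIs under each bar. In HDM+APM the monocyte-named cells hold 75.4% of Retnla and 71.7% of Arg1, the epithelial-named cells 76.5% of Chil4, and Chil3 is split between macrophage clusters and monocyte-named cells. Bars for control and APM rest on 1 to 18 UMIs for Retnla, Arg1 and Chil4.

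In Macrophages 1 to 7, 9 and 10, read as 1 class, Retnla was near the level of the reference cells in both allergen libraries. Their Retnla level was 0.335 CPM in control, 87.6 in HDM, 1.21 in APM and 1180 in HDM+APM. The ratio to the reference cells was 0.969 in HDM (0.589 to 1.53) and 1.11 in HDM+APM (0.978 to 1.25). In control it was 0.0164 (0.00183 to 0.774), against a single UMI in the 25 reference cells. No Retnla above that of the reference cells was therefore measured in this class. The HDM value against control rested on 23 against 5 UMIs.

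More Retnla was also counted in the reference cells of HDM+APM than in those of HDM, and whether they express it was not tested. The mix of these cells differed: 493 of 791 were T cells in HDM, and 404 of 634 were B cells 2 in HDM+APM. The share of reference cells with a Retnla UMI was 12.3% in HDM, at a median of 1245 UMIs per cell, and 92.9% in HDM+APM, at 4380. With each cell thinned to 1000 UMIs it was 6.94% of 519 cells and 57.1% of 601. T cells stood at 81.9 CPM in HDM and 1100 in HDM+APM, 13.4-fold higher (10.2 to 17.9), where 1.64% of the genes tested in T cells were at least 2-fold higher and 4.16% at least 2-fold lower. Without the T cell with the most Retnla UMIs, which held 46, the HDM+APM level was 950 CPM. Relative to Chil3, Retnla kept a narrow range over the reference types, from 0.731 Retnla UMIs per Chil3 UMI in dendritic cells to 1.11 in B cells 2, with 0.931 in T cells. The ratio was 1.48 in monocyte-named cells, 0.115 in Macrophage 8 and 45.1 in epithelial-named cells. The reference types thus lay close to each other in this ratio, and each of these 3 cell types lay outside their range. Macrophages 1 to 7, 9 and 10 lay below it too, with 299 Retnla and 7960 Chil3 UMIs in HDM+APM, though their Retnla was near the reference. The ratio also depends on how much Chil3 the cells hold, so a low ratio does not show a different Retnla level.

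In Macrophage 8, Retnla stood above the pooled reference cells in both allergen libraries. Most of that excess lay in 3 cells in HDM and in 40 of 110 cells in HDM+APM. It held 0, 98, 3 and 1807 Retnla UMIs in control, HDM, APM and HDM+APM, in 32 of 139 cells in HDM and 104 of 110 in HDM+APM, or 0, 213, 9.34 and 3639 CPM. The ratio to the reference was 2.36 in HDM (1.78 to 3.13) and 3.41 in HDM+APM (3.21 to 3.62). The granulocyte-like cells, which are part of the reference, stood at 248 CPM in HDM from 22 UMIs, and the ratio of Macrophage 8 to them was 0.860 (0.537 to 1.43) in HDM and 1.72 in HDM+APM. Without the 3 HDM cells that held at least 10 Retnla UMIs each, and 50 of the 98 together, Macrophage 8 stood at 106 CPM (77.9 to 140), against 90.4 (74.2 to 109) in the reference. In HDM+APM, 40 such cells held 1493 of the 1807 UMIs. The other 70 stood at 1204 CPM (1074 to 1344), against 1067 in the reference. No reference cells were left out in either library. Against control, the HDM level was at least 11.2-fold higher, counting 3 UMIs as the floor for the 0 in control, and the lower limit of the counting interval was 8.93-fold. There, 10.4% of the tested genes were at least 2-fold higher in HDM and 5.82% at least 2-fold lower. Between the allergen libraries, Retnla in Macrophage 8 was 17.1-fold higher in HDM+APM (13.9 to 21.1), where 1.55% of genes were at least 2-fold higher and 2.43% at least 2-fold lower. The T cell ratio for the same libraries was 13.4. With the reference level of each library subtracted, the log2 ratio in Macrophage 8 was 4.28, against 4.03 without subtraction.

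Within Macrophage 8 the Retnla signal was uneven. In HDM+APM, 12 of 110 cells gave at least 1% of their UMIs to Retnla and held 1067 of the 1807 UMIs (59.0%). The other 98 stood at 1604 CPM (1490 to 1724). That was above the pooled reference at 1067 CPM, from which no cells were left out, but below its granulocyte-like cells at 2111. Chil3, the hallmark of alveolar macrophages, was 2868 CPM in the 12 cells and 33707 in the other 98, and Fn1, which encodes fibronectin, was 3976 against 1058. The scavenger receptor gene Marco was at 0 UMIs in the 12 and at 69.4 CPM in the others. The 12 cells held too few UMIs in total for this 0 to show a lower Marco level. The lower Chil3 holds for the few cells with most Retnla and not for the cluster as a whole. Across its cells, r of the log levels of Retnla and Chil3 was −0.07 in HDM+APM and −0.20 in HDM. The 104 HDM+APM cells with any Retnla held Chil3 at 31729 CPM, and the 6 shallow cells with none (median 852 UMIs) at 14137. In HDM, Chil3 was 27749 CPM in the 32 cells with Retnla and 34733 in the 107 without.

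Macrophage 8 was also divided at 1% of UMIs for Chil3, and both divisions were chosen after the values were seen. In HDM, the 86 cells at or above 1% held Retnla at 69.3 CPM (43.4 to 105), no higher than the reference level of 90.4 (74.2 to 109). The 53 cells below 1% held it at 536 CPM (422 to 671), or at 190 (124 to 278) without the 3 cells with at least 10 UMIs. In HDM+APM the values were 1940 CPM in 68 cells and 7193 in 42. Of the 42, 12 cells with at least 10 UMIs held 1032 UMIs, and the other 30 stood at 1108 CPM (921 to 1323). Of the 68, 28 such cells held 461 UMIs, and the other 40 stood at 1274 CPM (1100 to 1468). With such cells left out on both sides, the HDM+APM intervals overlapped. The HDM intervals did not, at 190 CPM (124 to 278) in the Chil3-poor and 69.3 (43.4 to 105) in the Chil3-rich cells. The alveolar genes Siglecf and Marco were at 0 UMIs in the 53 Chil3-poor HDM cells and at 40.9 and 97.6 CPM in the 86 Chil3-rich ones, while Mmp12, a macrophage elastase gene, was 578 against 3417 CPM. The cells of Macrophage 8 thus differed among themselves in these genes. Much of the difference in Retnla came from a few Chil3-poor cells, and in HDM a part of it remained without them.

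Retnla varied widely among the monocyte-named cells, from 0.0425% to 16.6% of a cell's UMIs, with a median of 1.22%. The highest cell held 836 Retnla UMIs, and the cluster's level was 16171 CPM without it. In the 175 cells at or above 1%, Chil3 was 14071 CPM and Arg1 350, and in the other 133 they were 7138 and 201. Across the 308 cells, which share a library and differ in depth, Pearson's r of the log levels of Retnla and Chil3 was 0.42, where it was −0.07 in Macrophage 8 of the same library. The difference between these values was not tested.

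The epithelial-named cells were read cell by cell, because that cluster mixed kinds of cell. Its leading genes held 4 red blood cell markers and 2 epithelial ones, the haemoglobin gene Hbb-bs stood at 252215 CPM in the 68 APM cells, and the 25 HDM+APM cells held 1 Hbb-bs UMI. The levels are therefore set side by side and not compared between libraries. Control (7 cells) held no Retnla or Chil4 UMI, and APM held 2 Retnla UMIs and no Chil4 UMI, although 39 of its cells had more UMIs of the club cell secretoglobin Scgb1a1 than of the alveolar type 2 gene Sftpc. In HDM, Retnla reached 106 UMIs, all in the 2 cells with Scgb1a1 above Sftpc, where it was 4.03% and 4.16% of the UMIs. Of the 25 HDM+APM cells, 22 had Scgb1a1 above Sftpc, with Retnla at 89342 CPM and Chil4 at 7510. The 3 with Sftpc above held 39 Retnla UMIs and no Chil4 UMI. Foxj1, the factor that defines ciliated cells, had 2 UMIs in the 25 cells although the authors' name for the cluster includes ciliated cells.

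Retnla was unequal among the 22 cells with Scgb1a1 above Sftpc. Of these, 12 gave at least 1% of their UMIs to Retnla and held 3760 of the 3795 Retnla UMIs (99.1%), with a median of 12.8% and a highest value of 20.8%. In the 12 cells Chil4 was 9797 CPM against 1310 in the other 10. The goblet cell genes Clca1 and Muc5b were 10506 against 1572 and 1386 against 349 CPM, and Scgb1a1 was 351241 against 131126. Reg3g, an antimicrobial lectin gene, went the other way at 12021 against 101511, as did Scgb3a2, another secretoglobin gene, at 14405 against 24461. The 12 cells were also deeper, with a median of 2107.5 UMIs against 999.5, and the division at 1% was chosen after the values were seen. One of the 3 cells with Sftpc above Scgb1a1 also passed it, with Retnla at 5.64% of 514 UMIs. The level of all 25 cells without the highest was 70376 CPM. Across the 25 cells, which share 1 library, r of the log levels was 0.72 for Retnla and Chil4, 0.68 for Retnla and Clca1, 0.86 for Chil4 and Clca1, and −0.36 for Retnla and Reg3g.

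**Figure D3:**
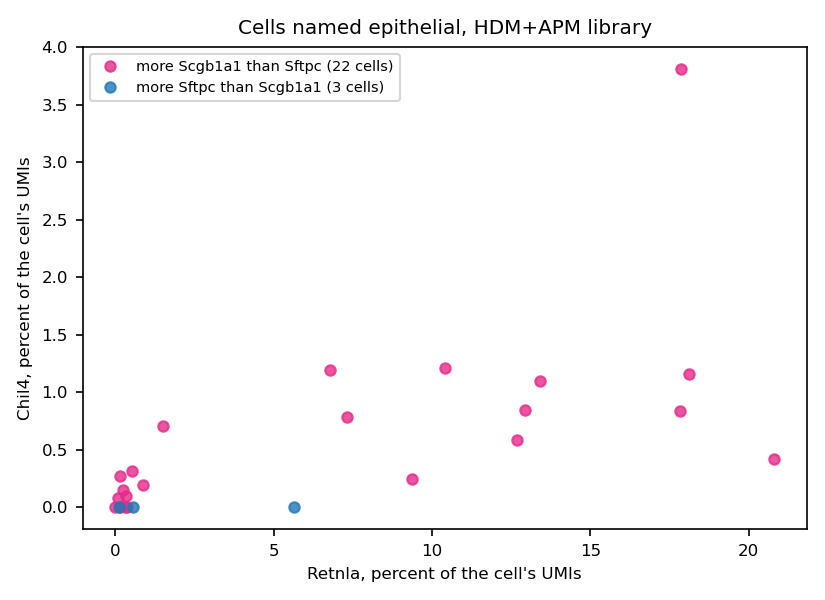
Retnla against Chil4, each as percent of the cell's UMIs, in the 25 epithelial-named cells of HDM+APM (1 point per cell), marked by whether Scgb1a1 or Sftpc was higher. The cells with the most Retnla (up to 20.8%) and all cells with Chil4 have Scgb1a1 above Sftpc, and the 3 cells with Sftpc above lie at 0 for Chil4.

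Chil4 was the gene most restricted to the epithelial-named cells. They held 48 of 64 Chil4 UMIs in HDM (75%), all in 1 cell, and 319 of 417 in HDM+APM (76.5%), at 6653 CPM. Without the highest cell the HDM+APM level was 5917 CPM. In Macrophage 8 it stood at 0, 8.71, 0 and 42.3 CPM over control, HDM, APM and HDM+APM, where the HDM reference was 8.37 CPM and the HDM+APM reference 15.6. The HDM+APM ratio to the reference was 2.71 (1.53 to 4.67) from 21 UMIs, with the level at 32.8 CPM without the highest cell. In monocyte-named cells the ratio was 1.29 (0.795 to 2.08), so a level above the reference was not detectable at this depth. Macrophages 1 to 7, 9 and 10 stood at 0.268, 7.62, 0.0933 and 3.95 CPM, although they held Chil3 at 6713 to 31403 CPM, so the Chil4 counts did not follow those of its near copy.

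Arg1 was measured mainly in Macrophage 8 and in the monocyte-named cells. Macrophage 8 stood at 38.1 CPM in control (6 UMIs, all in 1 cell), 899 in HDM (815 to 990), 3.11 in APM (1 UMI) and 280 in HDM+APM (235 to 330), and gave 95.2% of the Arg1 UMIs of the HDM library. Arg1 was 23.6-fold higher in HDM than in control (10.7 to 64.6), though the control level is that of 1 cell. It was 3.21-fold lower in HDM+APM than in HDM, the opposite direction to Retnla in the same cells, with a log2 ratio of −1.65. Without the highest cell of each library, the levels were 796 CPM in HDM and 213 in HDM+APM. Against the reference cells, at 15.1 CPM in HDM and 16.3 in HDM+APM, Arg1 in Macrophage 8 was 59.7-fold (37.3 to 102) and 17.2-fold (12.2 to 24.6) higher. Macrophages 1 to 7, 9 and 10 held 1, 3, 1 and 3 Arg1 UMIs in the 4 libraries.

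The monocyte-named cells held Arg1 at 289 CPM (264 to 316), which gave 474 of the library's 661 UMIs (71.7%). That level differed little from Macrophage 8 of the same library, with a ratio of 1.03 (0.853 to 1.26). Their Retnla was 4.56-fold higher and their Chil3 2.80-fold lower than in Macrophage 8. T cells of HDM+APM stood at 82.0 CPM for Arg1, but 20 of the 24 UMIs were in 1 cell and the level without it was 14.1. The epithelial-named cells held no Arg1 UMI in any library, which allows up to 62.6 CPM in HDM+APM.

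Arg1 UMIs in Macrophage 8 came from few cells. In HDM, 52 of 139 cells held any, 7 cells held 50% of them, and the highest cell held 53. In HDM+APM, 22 of 110 cells held any and 4 cells held 50%. The monocyte-named cells had a flatter spread: 189 of 308 (61.4%) held Arg1, 44 cells made up 50%, the highest held 14, and 126 of the 189 held 1 or 2 UMIs. The near equal levels in those cells and in Macrophage 8 therefore came from different spreads over cells. In the HDM cells of Macrophage 8, Arg1 was 724 CPM in the Chil3-rich and 1291 in the Chil3-poor cells, and in HDM+APM it was 336 and 162. Divided by Arg1 instead, the cells with any Arg1 held less Chil3 in summed UMIs in both libraries. The levels were 27407 against 37001 CPM in HDM and 26532 against 32631 in HDM+APM. Cell by cell, r of the log levels of Arg1 and Chil3 was −0.09 in HDM and 0.09 in HDM+APM, so no common direction was seen.

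**Figure D4:**
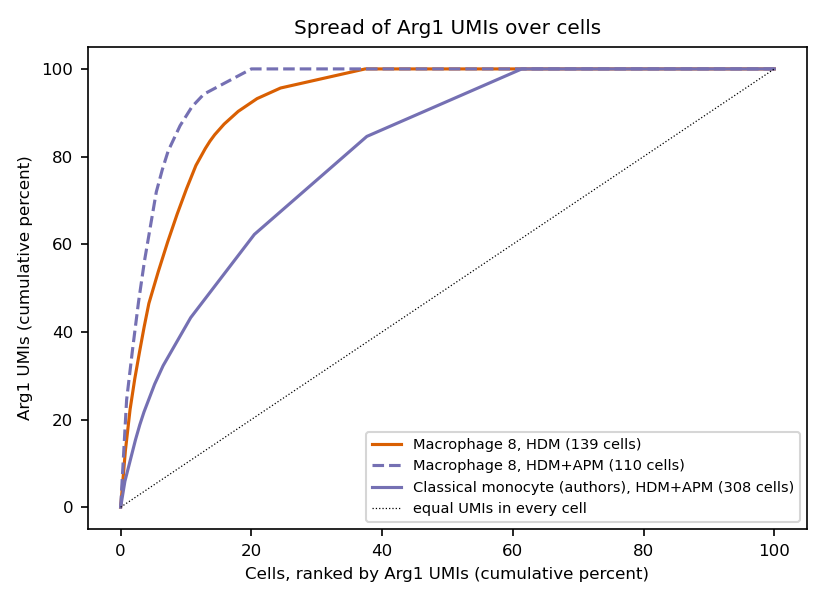
Cumulative Arg1 UMIs (percent of the class's total) over cells ranked from the highest, for Macrophage 8 in HDM (139 cells) and HDM+APM (110 cells) and the monocyte-named cells (308 cells). Macrophage 8 passes 50% within 7 and 4 cells, and the monocyte-named cells after 44.

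Chil3 was the only one of the 4 genes at high level without allergen. The Macrophages 1 to 7, 9 and 10 stood at 6713 CPM in control, 31078 in HDM, 7013 in APM and 31403 in HDM+APM. The HDM level was 4.63-fold that of control (4.53 to 4.73), a log2 ratio of 2.21 that lay above 99.8% of the genes tested, of which 2.6% were at least 2-fold higher and 2.06% at least 2-fold lower. The median cell gave 0.659% of its UMIs to Chil3 in control, 2.36% in HDM, 0.664% in APM and 2.53% in HDM+APM. The interquartile range was 0.503% to 0.846% in control and 1.36% to 4.27% in HDM, so these ranges did not overlap. Only 60 HDM cells and 46 HDM+APM cells remained in these clusters, against 3776 and 3501 without allergen.

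Each cluster with cells in both libraries had a higher summed Chil3 level in HDM than in control. The ratios ran from 1.61-fold in Macrophage 3 to 10.3-fold in Macrophage 10. Macrophages 4 and 10 had 1 HDM cell each, and Macrophage 6 had 4. Macrophage 2 had 7, and Macrophages 1 and 3 had 9 each. In Macrophage 3 the median HDM cell gave 0.617% of its UMIs to Chil3, within the control interquartile range of 0.407% to 0.672%. Macrophage 5, with 17 HDM cells, was 5.26-fold higher (5.08 to 5.45). Without allergen the dust left Chil3 almost level: the APM to control ratio was 1.04 (1.03 to 1.05) in Macrophages 1 to 7, 9 and 10 together, in a comparison in which 0.174% of genes were at least 2-fold higher and 0.00918% at least 2-fold lower. Of the 10 clusters, 5 were lower in APM, 2 were higher and 3 had intervals that included 1, over a range from 0.893 to 1.35. By the same interval rule, 20.4% of genes were higher and 16.4% lower in the clusters together.

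**Figure D5:**
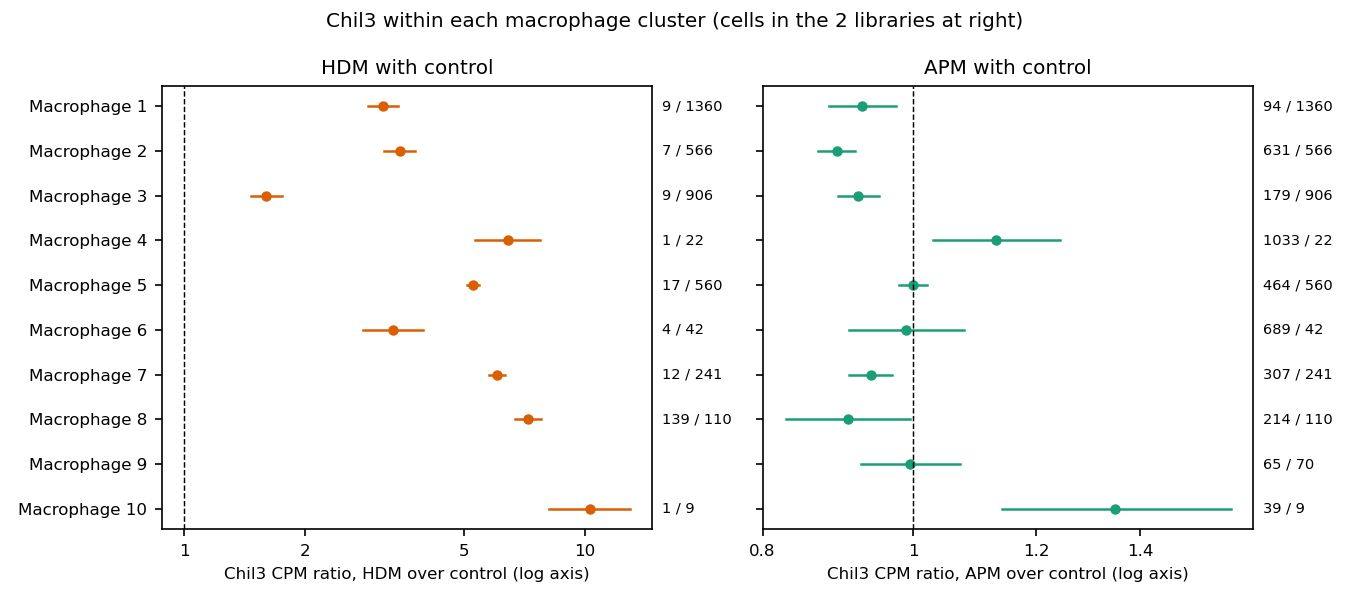
Ratio of the Chil3 level to control in HDM and in APM for each macrophage cluster (log axis, 95% counting intervals), with cell numbers at the right. All HDM ratios lie above 1, from 1.61 to 10.3, and the APM ratios lie between 0.893 and 1.35.

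In Macrophage 8, Chil3 stood at 4608 CPM in control, 33276 in HDM, 4183 in APM and 31521 in HDM+APM, which was 7.22-fold higher in HDM than in control (6.70 to 7.79). The APM to control ratio was 0.908 (0.829 to 0.995), where 3.31% and 2.15% of genes were at least 2-fold higher and lower. With dust, the allergen ratio, HDM+APM to APM, was 7.53 (7.13 to 7.97), where 4.97% and 4.49% of genes were at least 2-fold higher and lower. Chil3 thus differed little between the allergen libraries in Macrophage 8, with a ratio of 0.947 (0.926 to 0.969), while in the same comparison Retnla was higher and Arg1 lower. The monocyte-named cells held Chil3 at 11250 CPM, below either. The reference cells held 702 to 998 CPM in the 4 libraries. Among them the granulocyte-like cells were higher, at 1433 CPM in HDM and 2310 in HDM+APM, than T cells at 693 and 1182, and whether they express Chil3 was not tested.

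The other genes tied to the IL-4 and IL-13 response were mostly higher with the allergen in Macrophage 8. Of 18 measured alternative activation targets (those with at least 20 UMIs over both libraries), 14 were higher in HDM than in control with intervals that excluded 1 and none was lower, with a median log2 ratio of 1.80. Over all 4024 genes measured there, 12.5% were higher and 10% lower by the same rule, with a median of 0.07. Ccl24, an eosinophil chemokine gene, stood at 6.36 CPM in control and 2286 in HDM, Mmp12 at 38.1 and 2541, Rnase2a, an eosinophil-type ribonuclease gene, at 6.36 and 475, and Ccl8, a chemokine gene, at 0 and 298. In Macrophages 1 to 7, 9 and 10, 13 of 16 were higher (8.92% of all genes higher, 3.86% lower), with Ccl17, a T cell chemokine gene, at 12.3 and 743 CPM. The list has genes that lead Macrophage 8 itself, and its count there is a description.

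Between the allergen libraries, most of these targets lay on the side of Arg1 and not of Retnla. In Macrophage 8, 3 of 20 were higher in HDM+APM than in HDM and 12 were lower, with a median log2 ratio of −0.45 against −0.06 over all genes, of which 6.65% were higher and 8.66% lower. Mmp12 was 2541 CPM in HDM and 644 in HDM+APM, Ccl24 2286 and 594, and Ccl17 2489 and 745. Alox15, a lipoxygenase gene that also marks cavity macrophages and eosinophils, went the other way, at 2.18 and 64.4 CPM. Its HDM+APM level rested on 32 UMIs. T cells held Alox15 at 2.64 CPM in HDM and 47.8 in HDM+APM (14 UMIs), and the monocyte-named cells at 1620. Whether Macrophage 8 itself expressed Alox15 was not tested.

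Fewer of the arginine and signalling genes differed. Of 9 measured arginine and polyamine genes in Macrophage 8, 2 were higher in HDM than in control, Arg1 and Slc7a2, a cationic amino acid transporter gene (63.6 and 634 CPM), and 1 was lower, beside 12.5% and 10% of all genes. Of 15 signalling genes and transcription factors, 4 were higher and 1 lower, with Egr2 at 0 and 76.2 CPM and Cebpb at 807 and 1624. In Macrophages 1 to 7, 9 and 10, 10 of 18 were higher and 1 lower, beside 8.92% and 3.86% of all genes, with Irf4 at 1.94 and 22.9 CPM and Cish, a STAT-induced inhibitor gene, at 8.50 and 34.3. Reference cells of the HDM library held both genes too. Irf4 was 13.2 CPM in T cells, 0 in granulocyte-like and 99.0 in dendritic cells, and Cish was 73.9, 192 and 283. Whether these macrophages themselves expressed Irf4 or Cish was not tested. Between the allergen libraries, no signalling gene of 18 was higher in Macrophage 8 of HDM+APM and 5 were lower, beside 6.65% and 8.66% of all genes, with Cebpb among the 5 at 1624 and 648. No receptor chain of 4 was higher in Macrophage 8 of HDM than of control, and 1 of 4, Crlf2, was in Macrophages 1 to 7, 9 and 10. The ligands were sparse, with 13 Il4 UMIs, 11 of Il33 and 8 of Tslp in all cells. These are 3 of the 7 ligands and alarmins listed, and Il13 and Il5 among the others were not analysed here, nor was Nos2.

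Across the 17 refined types, with libraries summed, each gene had a different set of nearest genes by Pearson's r of log2(CPM + 10). Chil4 was closest to Clca1 (0.97), Tff2 (0.95), Muc5ac (0.95), Snhg18 (0.94) and Fcgbp (0.94). Arg1 was closest to C1qa (0.94), C1qc (0.92), C3ar1 (0.90) and C1qb (0.90). Chil3 was closest to Rpn2 (0.96), Grn (0.95), Stt3a (0.94), Asah1 (0.93) and Sdf2l1 (0.93), and Retnla to Nedd4 (0.88), Hes1 (0.86), Pglyrp1 (0.86), Baiap2 (0.84) and C4b (0.83). Among the 4 themselves, r was 0.76 for Retnla and Chil4, 0.65 for Retnla and Arg1, 0.19 for Arg1 and Chil3, 0.14 for Arg1 and Chil4, −0.35 for Retnla and Chil3 and −0.42 for Chil3 and Chil4. The types differ in depth and in which libraries fill them. With types and libraries taken apart, 1 of the 5 genes nearest to Retnla was again among its 5 nearest, and none was for the other 3 genes.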

How the data were processed

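Lavage cells of 4 groups, 1 library of 7 pooled mice each, were counted with the 10x Genomics 3' v2 kit. The authors deposited UMI counts, not normalized, as 1 matrix of 13838 genes by 9925 cells, with a table that gives each cell's library, coarse type and refined type. Cell Ranger 2.2.0, Seurat 2.3.4 and the build mm10 are named in the submitters' processing notes, without the role of each. All deposited cells were kept and no doublet caller was run. From these counts, UMIs were summed per library and refined type and expressed as CPM, with exact Poisson intervals, Clopper-Pearson intervals for shares and exact conditional binomial intervals for ratios, all at 95%. UMIs of 1 cell are not independent draws from the group, so intervals cover counting error only. A pseudocount of 10 CPM was added for log2 ratios, and genes counted as tested had at least 20 UMIs over both libraries. Where the text says at least 2-fold, a gene was counted as higher or lower from a log2 ratio of 1. Elsewhere it was counted from an interval that excluded 1, in gene lists and in the shares of all genes beside them. Libraries were compared within Macrophage 8, within Macrophages 1 to 7, 9 and 10 together, and within T cells, only with at least 50 cells on both sides. Macrophage clusters named singly are shown whatever their number of cells. With 1 library per group no test was possible. The total UMIs per library were 15170333 (control), 1920648 (HDM), 11355310 (APM) and 5197132 (HDM+APM). A count of 0 allows up to 3 UMIs. The members were all 4 genes, the nearest genes were the 5 with the highest r among genes that reached 50 CPM in a type (1 of those of Arg1 is not reported here), and up to 4 genes of a list were named by the size of their log2 ratio, with levels in the order in which they are printed. Members, lists and divisions of cells were chosen with earlier results of these data known. Python 3.11.15, numpy 2.4.6, scipy 1.17.1, pandas 2.3.3 and matplotlib 3.10.9 were used, and the ratio and interval code was tested on simulated data. Alternatives were only cells with at least 1000 UMIs, cells thinned to 1000 UMIs, the mean over cells, median-ratio scaling, 5% of the library profile subtracted, a pseudocount of 50 CPM, equal cluster shares and alveolar cells as 1 class. Shares of cells with a UMI were also taken after thinning and at 2 or more UMIs.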

Additional observations from a re-analysis of the deposited data

How the results depend on the processing

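Log2 ratios of CPM are given throughout. For Chil3 in Macrophages 1 to 7, 9 and 10, HDM to control was 2.21, and it was 2.07 in thinned cells, 2.06 as a mean over cells, 2.09 under median-ratio scaling, 2.25 with 5% of the library profile subtracted, 2.49 with equal cluster shares and 2.28 with alveolar cells as 1 class. The APM to control value of 0.06 was 0.0431 in thinned cells, 0.0366 as a mean over cells, 0.0448 under median-ratio scaling and −0.0406 with equal cluster shares. In Macrophage 8, HDM to control for Retnla was 4.48, and it was 5.61 thinned, 5.44 as a mean and 2.40 with the larger pseudocount. For Arg1 it was 4.24, and 5.81 with alveolar cells as 1 class. For Chil3 it was 2.85, and 2.99 in cells with at least 1000 UMIs, 2.41 thinned, 2.37 as a mean and 2.28 as 1 class. HDM+APM to HDM in Macrophage 8 was 4.03 for Retnla (3.12 thinned, 3.48 as a mean), −1.65 for Arg1 (−1.12 as a mean) and −0.08 for Chil3 (−0.13 as a mean, −0.0170 under median-ratio scaling, −0.0392 as 1 class). The APM to control value of −0.14 for Chil3 in Macrophage 8 was 0.0558 as 1 class. The causes of these shifts were not tested. Alternatives chosen after seeing the data subtracted the level of the reference cells (Chil3 HDM to control 2.40 in Macrophages 1 to 7, 9 and 10 and 3.16 in Macrophage 8, APM to control 0.10) or left out cells whose coarse type was epithelial (2.71 in Macrophage 8). Leaving out the cells with at least 10 Retnla UMIs and comparing with single reference types were also chosen after seeing the data. Of 69 shares of cells with a UMI, 47 lay outside their interval after thinning and 45 when at least 2 UMIs were asked for. Median-ratio scaling moved all genes by 0.12 for HDM to control in Macrophages 1 to 7, 9 and 10.

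Counts of genes at least 2-fold higher and lower depended on the threshold and the UMI minimum. For HDM to control in Macrophage 8 they were 417 and 234, against 93 and 33 at a log2 ratio of 2 and 924 and 1030 with no minimum. In Macrophages 1 to 7, 9 and 10 they were 269 and 213, against 20 and 1 at a log2 ratio of 2. For HDM+APM to HDM in Macrophage 8 they were 80 and 126, against 16 and 11, and 216 and 265 with no minimum. For HDM+APM to APM they were 235 and 212, against 58 and 37, and 497 and 513. For APM to control they were 108 and 70 there, against 13 and 3, and 567 and 684, and 19 and 1 in Macrophages 1 to 7, 9 and 10, against 10 and 0 at a log2 ratio of 2.

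No paired analysis was possible because each group has 1 library. The 5 genes nearest to Retnla kept 1 gene when r was taken over types and libraries apart, and the nearest genes of the other 3 kept none. Depth limits the HDM library most, where 29.4% of cells had under 1000 UMIs.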
